A study of Homo sapiens with 8 samples.

Results

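The 8 genes described here are those of the MYB family of transcription factors (MYBL2, MYBL1 and MYB), the LIN subunits of the MuvB complex (LIN9, LIN37, LIN52 and LIN54) and the forkhead factor FOXM1, out of 60646 genes in the deposited table of counts. They were chosen by symbol: MYBL2 for its low level in the knockout in this comparison, and the others because they belong to its family or act with it. Transcripts were measured by RNA-seq of total RNA depleted of ribosomal RNA in MDA-MB-231, an established human cell line derived from a breast cancer without hormone receptors or HER2. The 2 groups were 4 samples of DOT1L knockout cells (DOT1L/+), made with a guide RNA against the first exon of the gene, and 4 samples of wild-type cells of the same line. The series title concerns how DOT1L, which methylates histone H3 at lysine 79, acts on the turnover of MYC and Mondo on chromatin. Apart from the genotype DOT1L/+, the labels do not state how many alleles were edited. How many clones were used and whether replicates were grown separately are not stated either. The p-values therefore rest on the spread among these 8 samples, part or all of which could be technical.

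MuvB is a core of LIN9, LIN37, LIN52, LIN54 and the histone-binding protein RBBP4 that changes partners through the cell cycle. With the pocket proteins RBL1 or RBL2 and the factors E2F4 or E2F5 with a DP protein it forms the DREAM complex, which holds cell cycle genes silent in resting cells. In cycling cells MYBL2 (B-MYB) binds MuvB in their place and FOXM1 joins, and together they drive the genes of G2 phase and mitosis. LIN54 is the subunit that contacts DNA, at an element called CHR. MYB is best known from blood progenitors and MYBL1 from the male germ line.

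Totals ran from 46713622 to 49308625 counts in the knockout samples and from 40103408 to 50031412 in the wild-type samples. DOT1L, the targeted gene, averaged 84.7 ± 5.91 CPM (counts relative to library size after trimmed-mean, TMM, scaling) in the knockout and 109 ± 8.52 CPM in wild-type (SD, n = 4 each), and its log2 change was -0.37 (SE 0.06, edgeR p adjusted over all tested genes = 2.83e-05, with 0.05 as the threshold throughout). Its 40 chromosomal neighbours stood at -0.13, and relative to them it was lower by a log2 change of -0.23 (limma adjusted p = 0.00434). The defining genes of the line were high in both groups, with VIM at 3606 to 4054 CPM in the knockout and 2685 to 3186 CPM in wild-type. EGFR (466 to 511 against 605 to 657 CPM) and AXL (983 to 1028 against 1190 to 1279 CPM) were lower in the knockout. The ranges of CD44 and CAV1 overlapped. Genes low in the line (ESR1, PGR, CDH1 and FOXA1) summed to 8.39 to 9.76 CPM in the knockout, mostly FOXA1. Their sum was 6.26 to 8.28 CPM in wild-type. The summed level of 8 markers of blood, endothelial, liver and red cells was 1.44 to 2.10 CPM in the knockout and 0.930 to 2.10 CPM in wild-type. Levels are of RNA from whole cultures, in which fewer cells expressing a gene and less RNA per cell cannot be told apart.

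The stretch upstream of MYBL2 is shown because its transcript is the one that differs most between the groups among the 8 genes. It was taken from RefSeq (build GRCh38.p14, chr20:43666864-43667113, plus strand) and covers the 250 bases before the start annotated in RefSeq. Capitals mark the single match to E2F-type letters on either strand, namely TTGGCG and, with other inner bases, the words TTCCCG as well as TTCGCG and finally also TTGCCG. The match begins 41 bases before that start. GENCODE, used for the gene positions here, starts MYBL2 further upstream, at 43667019, so the match lies inside the gene as GENCODE gives it.
MYBL2: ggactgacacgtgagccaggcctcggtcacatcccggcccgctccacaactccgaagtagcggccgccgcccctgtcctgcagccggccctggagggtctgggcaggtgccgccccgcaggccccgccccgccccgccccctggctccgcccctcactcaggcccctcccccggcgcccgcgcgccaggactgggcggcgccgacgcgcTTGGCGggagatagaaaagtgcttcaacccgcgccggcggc
Such letters were present in 31.1% of all 35116 promoter windows of 300 bases in that table. The letters TTTGAA and TTCGAA of the CHR element and the letters CCAAT had 0 matches each in the MYBL2 window. The letters were chosen after the MYBL2 window had been seen.

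MYBL2 (ENSG00000101057, chromosome 20, 43667019 to 43716496, plus strand, GRCh38) was the member with the large difference. Its level was 12.7, 10.4, 12.1 and 10.2 CPM in knockout replicates 1, 2, 3 and 5, against 99.9, 97.7, 103.6 and 88.2 CPM in wild-type replicates 1, 2, 3 and 5. Every knockout sample lay far below every wild-type sample, and within each group the spread was small. The transcript was not lost: the libraries held 493 to 622 counts in the knockout, against 3901 to 4901 in wild-type. The group means were 11.4 ± 1.24 CPM in the knockout and 97.3 ± 6.55 CPM in wild-type (SD, n = 4 each), so that the knockout held 11.7% of the wild-type level, 8.57-fold lower. The log2 change was -3.10 (SE 0.07), and within pairs of the same replicate number it ran from -3.23 to -2.97. MYBL2 was chosen for this difference, and it is given here as a description without a test. Of the 6651 tested genes whose log2 CPM averaged 5 or more, 1 (the non-coding AFAP1-AS1) had a lower log2 change, and of all 19877 tested genes 111 did.

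**Figure D1:**
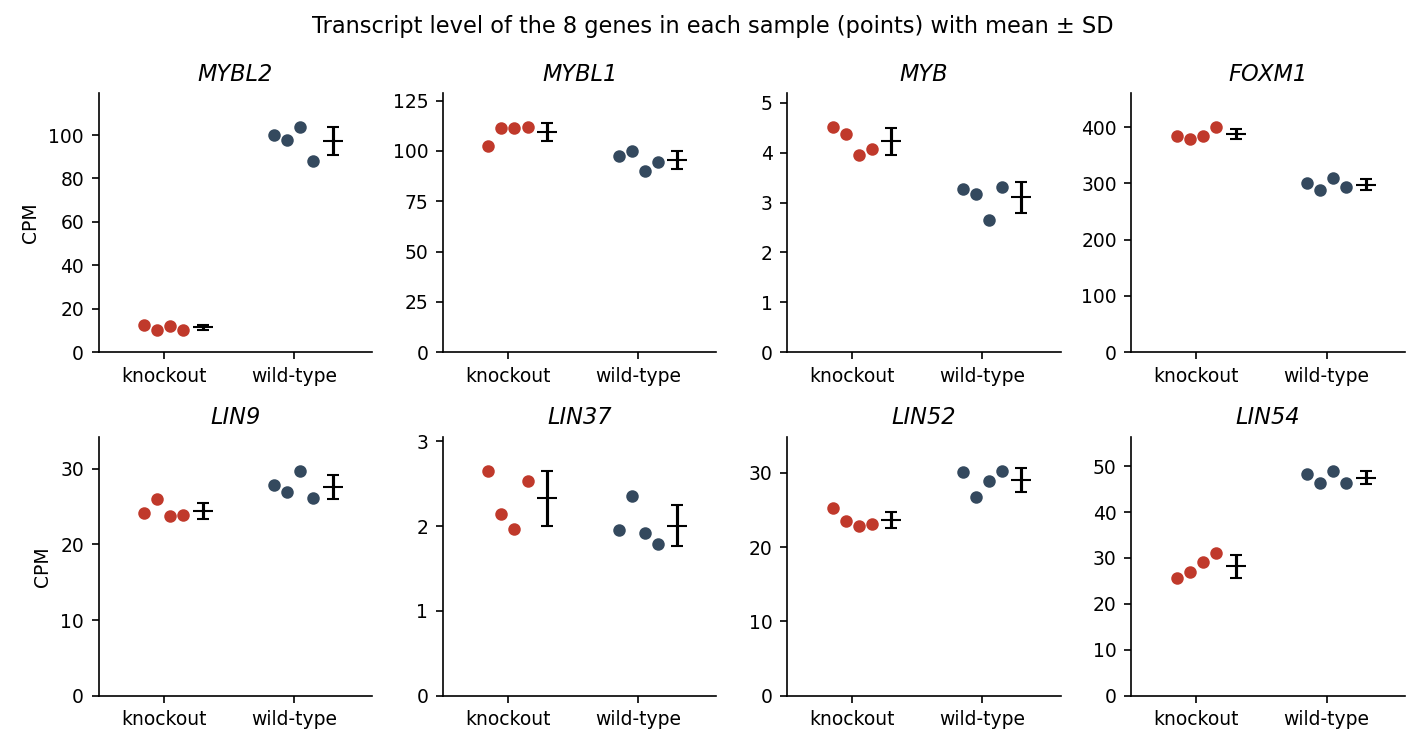
Level of each of the 8 genes in CPM (vertical axis, from 0) in the 4 knockout and the 4 wild-type samples, 1 point per sample, with the mean and SD beside them. MYBL2 sits at 10.2 to 12.7 CPM in the knockout and at 88.2 to 103.6 CPM in wild-type, while the groups of the other genes lie much closer together and those of LIN37 overlap.

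The genes beside MYBL2 did not have its low level in the knockout. The nearest tested gene before it, IFT52, a subunit of the transport machinery of cilia, had a log2 change of 0.09 (edgeR adjusted p = 0.165), and the nearest after it, TOX2, an HMG-box protein, fell, with a log2 change of -0.57 (adjusted p = 2.97e-05). Of the 20 tested genes on each side, 10 rose, 6 fell and 24 did not pass, where 23.9% of all tested genes rose and 23.6% fell. For the level of these neighbours, each gene was centred on its own mean log2 CPM and the median was taken in each sample. The difference of these medians between the groups, the level of the neighbours, was 0.03. Relative to it MYBL2 stood at -3.12 (SE 0.07).

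**Figure D2:**
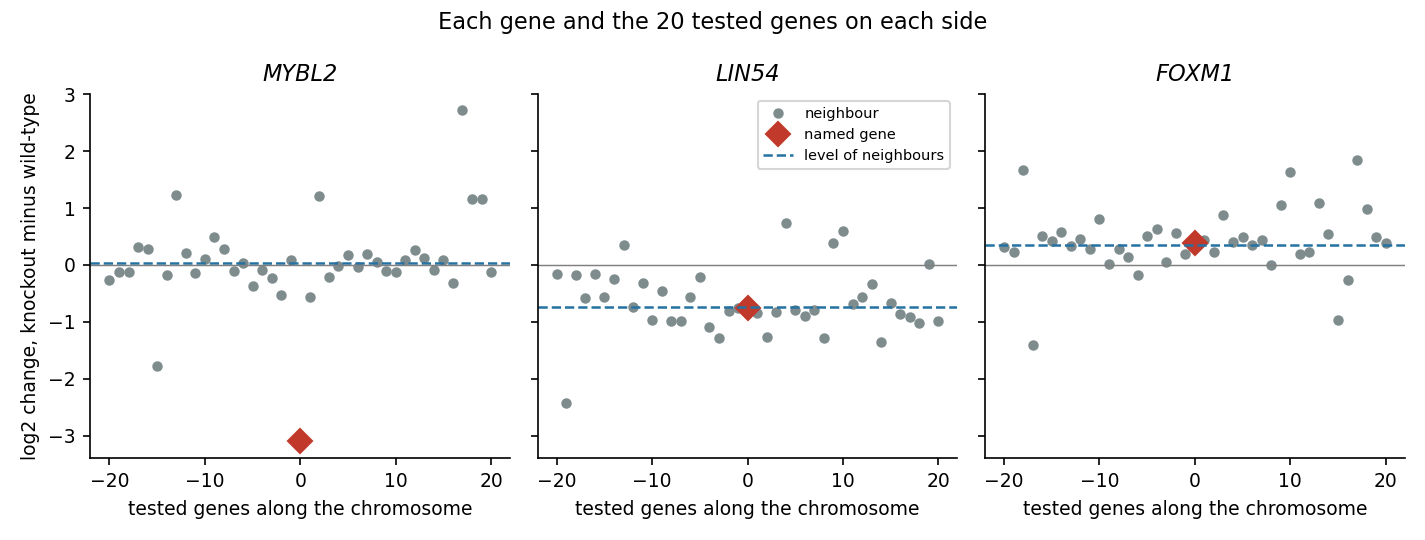
Log2 change between knockout and wild-type (vertical axis) of MYBL2, LIN54 and FOXM1 (red diamonds) and of the 20 tested genes on each side of each (grey points), in their order along the chromosome. The dashed line is the level of the neighbours: 0.03 around MYBL2, which lies far below it at -3.10, and -0.73 around LIN54 and 0.36 around FOXM1, which both lie on it.

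The other MYB genes were slightly higher in the knockout. MYBL1 (ENSG00000185697, chromosome 8, 66562175 to 66614247, minus strand) had 102, 112, 111 and 112 CPM in knockout replicates 1, 2, 3 and 5, and 97.4, 100.2, 90.01 and 94.6 CPM in wild-type replicates 1, 2, 3 and 5. The groups did not overlap, and MYBL1 rose with a log2 change of 0.19 (SE 0.05, edgeR adjusted p = 0.00193). MYB (ENSG00000118513, chromosome 6, 135181315 to 135219173, plus strand) was low in both groups. It had 4.51, 4.38, 3.95 and 4.07 CPM in knockout replicates 1, 2, 3 and 5, against 3.28, 3.18, 2.64 and 3.31 CPM in wild-type replicates 1, 2, 3 and 5, or 189 to 221 counts against 125 to 152. The groups did not overlap here either, and MYB rose with a log2 change of 0.45 (SE 0.11, adjusted p = 0.00282). The neighbours of MYBL1 stood at 0.25 and those of MYB at 0.22, and relative to them MYBL1 stood at -0.06 (limma adjusted p = 0.348) and MYB at 0.23 (adjusted p = 0.129). With 10 neighbours on each side in place of 20, MYB passed (log2 change 0.34, adjusted p = 0.0260) and MYBL1 did not (log2 change 0.03, adjusted p = 0.747).

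Per kilobase of exon, the order of the MYB genes differed between the groups. MYBL1 had 15.1 ± 0.627 CPM per kilobase in the knockout and 13.2 ± 0.598 in wild-type (SD, n = 4 each), and MYBL2 had 4.09 ± 0.447 in the knockout and 35.1 ± 2.36 in wild-type. In the knockout MYBL1 therefore stood above MYBL2 in every sample, and in wild-type MYBL2 stood above MYBL1 in every sample. MYBL2 made up 20.5 ± 2.31% of the summed level of the 3 genes per kilobase in the knockout and 71.8 ± 1.87% in wild-type. MYBL1 made up 75.6 ± 2.43% in the knockout and 27.1 ± 1.72% in wild-type, and MYB 3.86 ± 0.302% in the knockout and 1.16 ± 0.153% in wild-type. These shares follow in large part from the MYBL2 difference for which it was chosen.

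FOXM1 (ENSG00000111206, chromosome 12, 2857681 to 2877155, minus strand) was the most abundant of the 8 transcripts and rose. It had 385, 380, 384 and 399.9 CPM in knockout replicates 1, 2, 3 and 5, against 301, 288, 309 and 294 CPM in wild-type replicates 1, 2, 3 and 5. The groups did not overlap, and the log2 change was 0.38 (SE 0.04, edgeR adjusted p = 4.41e-07). The gene lies in a stretch that was higher as a whole. Of its 40 neighbours 30 rose, 2 fell and 8 did not pass, where 23.9% of all tested genes rose and 23.6% fell. The level of the neighbours was 0.36, and relative to it FOXM1 stood at 0.02 (SE 0.05, limma adjusted p = 0.777). RHNO1, a checkpoint gene that overlaps FOXM1 on the other strand without sharing exon bases, rose with a log2 change of 0.44 (edgeR adjusted p = 8.32e-07). ITFG2, whose exons on the other strand share 15.9% of the FOXM1 exon bases, rose with a log2 change of 0.19 (adjusted p = 0.0102). Both were chosen by their position. The library kit keeps the strand, but whether reads were counted by strand is not given in the sources used here.

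Of the LIN subunits of MuvB, LIN54, LIN52 and LIN9 fell and LIN37 did not pass. LIN54 (ENSG00000189308, chromosome 4, 82909973 to 83012926, minus strand), the DNA-contacting subunit, had 25.6, 26.9, 29.2 and 31.2 CPM in knockout replicates 1, 2, 3 and 5, against 48.4, 46.3, 49.01 and 46.4 CPM in wild-type replicates 1, 2, 3 and 5. The groups lay well apart, with a log2 change of -0.75 (SE 0.06, edgeR adjusted p = 9.81e-10). Its neighbours were lower as a whole: of 40, 27 fell, 3 rose and 10 did not pass, where 23.6% of all tested genes fell and 23.9% rose. The level of the neighbours was -0.73, and relative to it LIN54 stood at -0.03 (SE 0.06, limma adjusted p = 0.743).

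LIN52 (ENSG00000205659, chromosome 14, 74084796 to 74201235, plus strand), the subunit through which MuvB takes up the pocket proteins or MYBL2, had 25.3, 23.5, 22.9 and 23.1 CPM in knockout replicates 1, 2, 3 and 5, against 30.2, 26.8, 28.9 and 30.3 CPM in wild-type replicates 1, 2, 3 and 5. The highest knockout sample was below the lowest wild-type sample. The log2 change was -0.29 (SE 0.06, adjusted p = 0.000268), and relative to neighbours at 0.10 it was -0.39 (SE 0.06, limma adjusted p = 3.27e-05). LIN9 (ENSG00000183814, chromosome 1, 226231149 to 226309869, minus strand), which also binds MYBL2, had 24.1, 25.98, 23.8 and 23.95 CPM in knockout replicates 1, 2, 3 and 5, against 27.8, 26.9, 29.8 and 26.1 CPM in wild-type replicates 1, 2, 3 and 5. The groups came within a fraction of a CPM of each other without overlapping. The log2 change was -0.18 (SE 0.06, edgeR adjusted p = 0.0157), and -0.24 (limma adjusted p = 0.00152) relative to neighbours at 0.07. The LIN9 call was lost with library totals (adjusted p = 0.0904), with upper-quartile scaling (0.107), without wild-type replicate 3 (0.0513) and without knockout replicate 3 (0.0540).

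LIN37 (ENSG00000267796, chromosome 19, 35748361 to 35754519, plus strand), a subunit needed for repression by DREAM, had 2.65, 2.15, 1.96 and 2.54 CPM in knockout replicates 1, 2, 3 and 5, and 1.96, 2.35, 1.92 and 1.79 CPM in wild-type replicates 1, 2, 3 and 5. The groups overlapped, and the log2 change of 0.22 (SE 0.15, 95% interval -0.07 to 0.50) did not pass (edgeR adjusted p = 0.234). It rested on 82 to 130 counts per library. Other annotated genes share 26.7% of its exon bases on the same strand and 41.8% on the other strand, so its counts are uncertain.

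Of the 7 members other than MYBL2, 3 rose, 3 fell and 1 did not pass, where 47.6% of all tested genes passed. All 8 members passed the filter on low counts. The groups did not overlap for 6 of the 7, nor for 43.4% of all tested genes. Relative to their neighbours 0 rose, 2 fell (LIN52 and LIN9) and 5 did not pass, where 43.9% of 19604 genes passed. With 10 neighbours on each side 1 rose (MYB) and 2 fell, where 42.8% passed. The part that the neighbours play in the changes of FOXM1, LIN54, MYBL1 and MYB was not tested further, and DNA copy number was not analysed here.

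**Figure D3:**
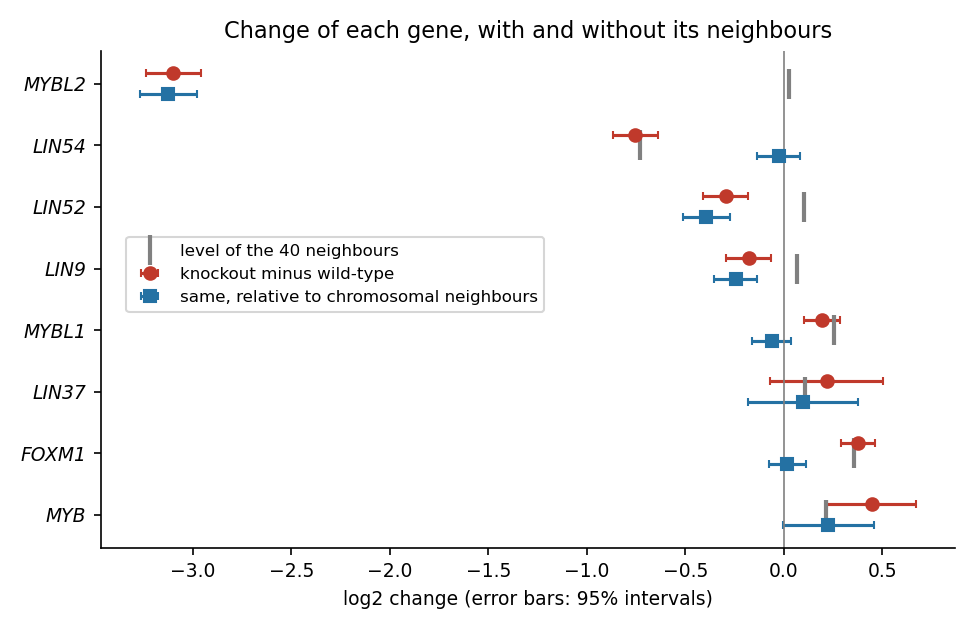
Log2 change of each gene (red circles), the level of its 40 chromosomal neighbours (grey ticks) and the change relative to them (blue squares), with 95% intervals as error bars. MYBL2 stays near -3.1 in both, LIN52 and LIN9 stay below 0, and LIN54, FOXM1 and MYBL1 lie near 0 once set against their neighbours.

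Across the 8 genes, levels per kilobase of exon placed FOXM1 highest in both groups, at 79.05 ± 1.78 CPM per kilobase in the knockout and 60.8 ± 1.89 in wild-type (SD, n = 4 each). In the knockout the order after FOXM1 was MYBL1 (15.1), LIN52 (6.42), LIN9 (5.51), LIN54 (4.17), MYBL2 (4.09), LIN37 (0.825) and MYB (0.769). There LIN54 and MYBL2 overlapped, as did LIN37 and MYB, and the other neighbours in the order did not. In wild-type the order after FOXM1 was MYBL2 (35.1), MYBL1 (13.2), LIN52 (7.86), LIN54 (7.02), LIN9 (6.23), LIN37 (0.711) and MYB (0.565), with no overlap between neighbours in the order. The place of LIN37 is uncertain, since other annotated genes share 26.7% of its exon bases on the same strand and 41.8% on the other. By the longest transcript in place of all exons, LIN54 and LIN9 overlapped in wild-type. MYBL2 thus overlapped LIN54 in the knockout, with replicates 2 and 5 below all LIN54 samples, and stood above all LIN subunits in wild-type. By all exons, LIN9 stood above LIN54 in the knockout and below it in wild-type. The ratio of MYBL2 to FOXM1 per kilobase was 0.0518 ± 0.00614 in the knockout and 0.576 ± 0.0315 in wild-type. By the longest transcript that ratio was 0.0379 ± 0.00449 in the knockout and 0.421 ± 0.0230 in wild-type. Its difference between the groups follows in large part from the MYBL2 difference for which that gene was chosen.

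**Figure D4:**
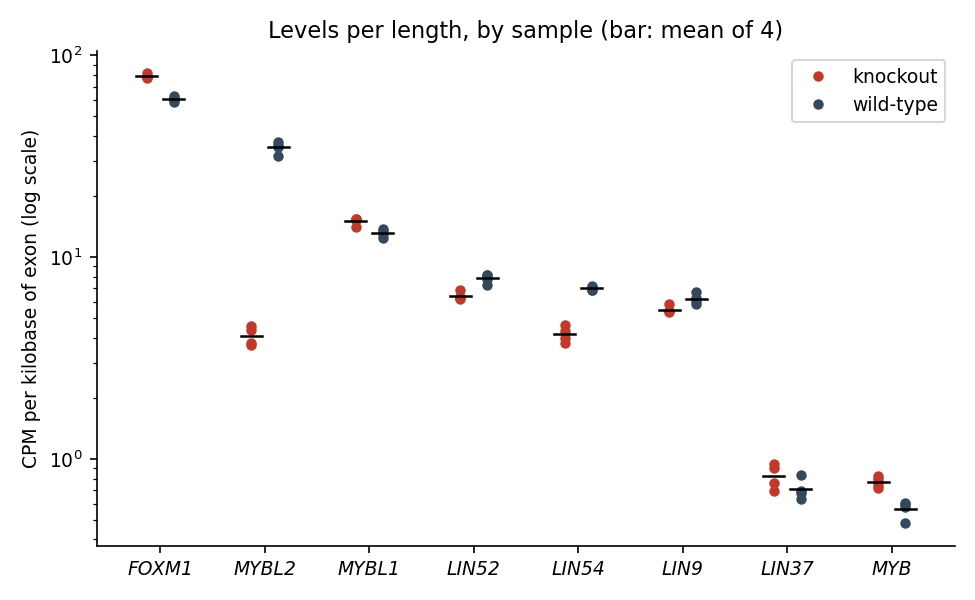
Level per length of the 8 genes in CPM per kilobase of exon (log scale), 1 point per sample with the mean of 4 as a bar, knockout to the left of wild-type. MYBL2 stands at 4.09 in the knockout and 35.1 in wild-type. LIN54 and LIN9 also change order between the groups by this length, though by the longest transcript they overlap in wild-type. The level of LIN37 is uncertain, since other annotated genes share part of its exon bases.

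Genes known as targets of MYBL2 with MuvB and of FOXM1 included more that rose than fell. In a list of 65 such G2/M genes, 23 (35.4%) rose, 12 (18.5%) fell and 30 did not pass, where 23.9% of all tested genes rose and 23.6% fell. The median log2 change of the list was 0.05, that of all tested genes was 0.00, and the list ran from -1.05 to 0.47. The lean towards higher values depended on the scaling: 33 rose and 7 fell with library totals (29.7% and 18.8% of all genes), and likewise 33 and 7 with upper-quartile scaling (30.3% and 18.6% of all genes). Relative to chromosomal neighbours 16 rose and 15 fell (21.9% and 22% of all genes), with a median of -0.01. Library totals and upper-quartile scaling placed the median of all genes at 0.07, against 0.00 with TMM, and that of the list at 0.12 under both.

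Several widely used readouts of MYBL2 and FOXM1 lay close to their wild-type level. Cyclin B1 (CCNB1), the partner of CDK1 at entry into mitosis, averaged 393 ± 19.6 CPM in the knockout and 369.97 ± 5.07 CPM in wild-type (SD, n = 4 each), with a log2 change of 0.09 (95% interval -0.01 to 0.18, edgeR adjusted p = 0.140). It passed with library totals (0.15, adjusted p = 0.00667), with upper-quartile scaling (0.15, adjusted p = 0.00798), under a stricter filter that asked for a mean log2 CPM of 1 (0.115, adjusted p = 0.0330) and relative to neighbours (0.23, limma adjusted p = 0.00130). CCNB2 changed by 0.06 (interval -0.03 to 0.15, adjusted p = 0.315) and the mitotic kinase AURKA by 0.05 (interval -0.04 to 0.14, adjusted p = 0.432). With library totals CCNB2 passed at 0.12 (adjusted p = 0.0444) and AURKA at 0.11 (adjusted p = 0.0376), and with upper-quartile scaling both passed as well. Survivin (BIRC5), a member of the chromosomal passenger complex, had 227 ± 5.03 CPM in the knockout and 227 ± 5.36 CPM in wild-type (log2 change 0.00, interval -0.08 to 0.09, adjusted p = 0.947). The kinetochore protein CENPF had 507 ± 35.4 CPM in the knockout and 518 ± 9.17 CPM in wild-type (log2 change -0.03, interval -0.13 to 0.07, adjusted p = 0.646). The kinase PLK1, which MYBL2 helps to induce and which in turn acts on FOXM1, had 199 ± 12.1 CPM in the knockout and 218 ± 11.03 CPM in wild-type. The groups of PLK1 overlapped. Relative to neighbours it passed at -0.16 (limma adjusted p = 0.0191). Its log2 change of -0.13 passed narrowly (edgeR adjusted p = 0.0431). That call was lost with library totals (adjusted p = 0.263) and upper-quartile scaling (0.306), under the stricter filter (0.0996), and on leaving out any of knockout replicates 1 (0.108), 2 (0.118) and 3 (0.121) or of wild-type replicates 1 (0.120), 3 (0.0693) and 5 (0.0639).

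The largest changes of that list were those of CCNA2, CENPE and CDCA3. Cyclin A2 (CCNA2), which activates CDKs in S and G2 phase, fell to 92.5 ± 8.16 CPM in the knockout, against 191 ± 9.67 CPM in wild-type (log2 change -1.05, adjusted p = 6.77e-12). The kinetochore motor CENPE fell to 133 ± 17.3 CPM in the knockout, against 224 ± 6.16 CPM in wild-type (log2 change -0.75, adjusted p = 1.01e-06). Both lie on chromosome 4, as LIN54 does, among neighbours at -0.78 and -0.82. Relative to these CCNA2 still fell, by 0.27 on the log2 scale (limma adjusted p = 0.000212), while CENPE stood at 0.06 (adjusted p = 0.402). CDCA3, a trigger of mitotic entry on chromosome 12, rose to 137 ± 5.11 CPM in the knockout, against 98.7 ± 3.35 CPM in wild-type (log2 change 0.47, edgeR adjusted p = 2.30e-08), among neighbours at 0.40. Relative to them it stood at 0.07 (limma adjusted p = 0.260).

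The CHR element, to which LIN54 binds, was counted in the promoter windows of these genes. Its letters (TTTGAA or TTCGAA, either strand) were present for 41 of the 58 G2/M genes with a window in the RefSeq table, or 70.7%, against 19.5% of 27305 genes with a window. The 41 genes with the letters had 15 that rose, 9 that fell and 17 that did not pass, and the 17 genes without them had 6, 3 and 8. For comparison, 23.9% of all tested genes rose and 23.6% fell. The median log2 changes with and without the letters were 0.05 and 0.09. The stretches below show the match nearest the start, in capitals, for each named G2/M gene whose window has one and for LIN54 itself, all in GRCh38.p14 and on the strand of the gene. The starts are those of RefSeq, and all 5 stretches lie inside the genes as GENCODE gives them. They lie at chr15:59105105-59105134 (CCNB2, plus strand), chr16:23678848-23678877 (PLK1, plus), chr1:214603223-214603244 (CENPF, plus), chr12:6851272-6851301 (CDCA3, minus) and chr4:83010906-83010935 (LIN54, minus).
CCNB2: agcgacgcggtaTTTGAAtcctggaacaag
PLK1: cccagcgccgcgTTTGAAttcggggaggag
CENPF: ggctgcgggcagTTTGAAttag
CDCA3: cgtggcgggaagTTTGAAactggtaacttc
LIN54: ggcccttgtgcgTTTGAAggttggcggggc
The same 6 letters stand near the start of a gene that passed upwards (CDCA3), genes that passed downwards (PLK1 and LIN54) and genes that did not pass (CCNB2 and CENPF). These calls have limits: relative to neighbours CDCA3 (0.07) and LIN54 (-0.03) did not pass, and the PLK1 call was lost under several settings. CHR letters were also present in a window of LIN9 and in a window of LIN37. A match of letters is a description of the sequence and was not tested for binding.

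**Figure D5:**
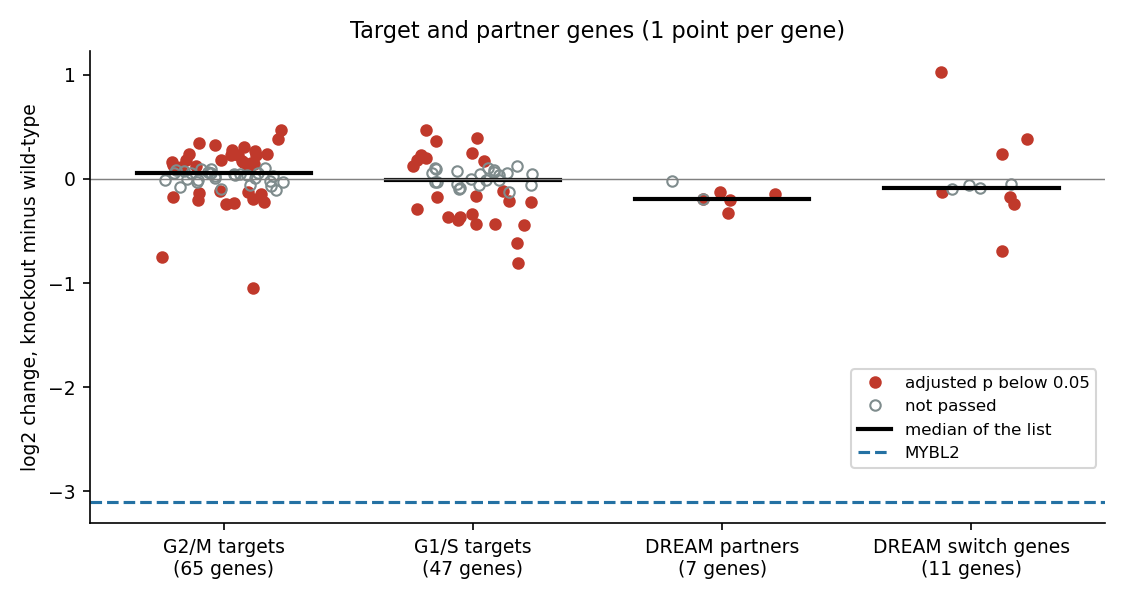
Log2 change between knockout and wild-type of each gene of 4 lists (1 point per gene, filled where adjusted p was below 0.05), with the median of each list as a bar and MYBL2 as a dashed line. Every gene of the lists lies far above the MYBL2 line at -3.10, and the list medians lie between -0.19 and 0.05. MYBL2 was chosen for its low level, and of all 19877 tested genes 111 had a lower log2 change, so the distance to its line is not particular to these lists.

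DREAM also holds down genes of the start of S phase, many of them targets of E2F factors. Such G1/S genes numbered 47, of which 9 (19.1%) rose and 15 (31.9%) fell, where 23.9% of all tested genes rose and 23.6% fell. The other 23 did not pass, and the median log2 change was -0.01. Risers outnumbered fallers with library totals (16 to 13, against 29.7% and 18.8% of all genes) and upper-quartile scaling (18 to 12, against 30.3% and 18.6%). They stood at 12 to 13 relative to neighbours (21.9% and 22% of all genes), so no direction of the list held under every scaling. E2F8, a repressor of the E2F family, fell to 26.4 ± 0.732 CPM in the knockout, against 46.1 ± 1.41 CPM in wild-type (SD, n = 4 each; log2 change -0.80, edgeR adjusted p = 2.96e-11). GINS2, a subunit of the replicative helicase, fell by 0.62 on the log2 scale and UHRF1, which helps maintain DNA methylation, by 0.44. EXO1, a nuclease of mismatch repair, rose to 79.9 ± 1.85 CPM in the knockout, against 57.7 ± 3.17 CPM in wild-type (log2 change 0.47, adjusted p = 5.46e-08). All 4 passed in the same direction relative to their neighbours, with log2 changes of -0.54 for E2F8, -0.43 for GINS2, -0.26 for UHRF1 and 0.53 for EXO1.

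Of the 7 genes that complete DREAM beside the LIN subunits, 0 rose, 5 fell and 2 did not pass. Their median log2 change was -0.19. Of all tested genes 23.9% rose and 23.6% fell. RBL2 (p130), the pocket protein of resting cells, fell to 33.97 ± 0.940 CPM in the knockout, against 42.7 ± 4.50 CPM in wild-type (SD, n = 4 each; log2 change -0.33, edgeR adjusted p = 0.000237). RBL1 (p107), its counterpart in cycling cells, had 132 ± 4.28 CPM in the knockout and 134 ± 6.26 CPM in wild-type (log2 change -0.02, interval -0.11 to 0.07, adjusted p = 0.765). The repressive factor E2F4 fell, with a log2 change of -0.19 (adjusted p = 0.00455), and E2F5 changed by -0.19 without passing (adjusted p = 0.144), though it passed without knockout replicate 5 (adjusted p = 0.0284). The DP proteins TFDP1 and TFDP2 fell by 0.14 (adjusted p = 0.00790) and 0.21 (adjusted p = 0.000896), and RBBP4, the histone-binding subunit of MuvB, by 0.13 (adjusted p = 0.0205). With library totals or upper-quartile scaling 3 of the 7 fell and 0 rose (18.8% and 18.6% of all genes fell under these scalings), the calls of RBBP4 and TFDP1 being lost. Relative to neighbours 2 fell (TFDP2 and RBBP4) and 0 rose, where 22% of all genes fell, and RBL2 stood at -0.09 (limma adjusted p = 0.338). The RBBP4 call was also lost under the stricter filter (adjusted p = 0.0530) and on leaving out knockout replicate 3 (0.0711), wild-type replicate 1 (0.0565) or wild-type replicate 2 (0.0580).

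Among 11 genes that switch MuvB between its partners, 3 rose, 4 fell (CCND1, CCNF, CDK4 and PLK1) and 4 did not pass. CCNF and PLK1 are also in the G2/M list. Of all tested genes 23.9% rose and 23.6% fell. The number of falls in the list depended on the setting. Relative to neighbours 3 rose and 6 fell (21.9% and 22% of all genes). With library totals 3 rose and 2 fell (29.7% and 18.8% of all genes), and likewise with upper-quartile scaling (30.3% and 18.6%). The CDK inhibitor CDKN1A (p21), which favours DREAM assembly, rose to 89.3 ± 1.26 CPM in the knockout, against 43.9 ± 3.48 CPM in wild-type (log2 change 1.02, edgeR adjusted p = 1.71e-12). CDKN1B (p27) changed by -0.06 (adjusted p = 0.370), and by -0.40 relative to neighbours at 0.34 (limma adjusted p = 2.80e-05). Cyclin D1 (CCND1), which with CDK4 or CDK6 releases pocket proteins, fell to 495 ± 10.1 CPM in the knockout, against 799.8 ± 23.3 CPM in wild-type (log2 change -0.69, or -0.24 relative to neighbours at -0.45), while cyclin D3 (CCND3) rose with a log2 change of 0.38 (adjusted p = 1.31e-06). CDK2 rose by 0.24 (adjusted p = 0.000551), CDK4 fell by 0.17 (adjusted p = 0.0142) and CDK6 changed by -0.05 (adjusted p = 0.791). The CDK4 call was lost with library totals (adjusted p = 0.0704) and upper-quartile scaling (0.0998). Cyclin F (CCNF), which binds MYBL2 and restrains it, fell, with a log2 change of -0.24 (adjusted p = 0.000635). DYRK1A, the kinase that marks LIN52 for DREAM assembly, changed by -0.10 (adjusted p = 0.0749). It passed in the paired fit (adjusted p = 0.0368) and without wild-type replicate 2 (adjusted p = 0.0374).

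The genes whose profile over the 8 samples was most like that of a member were found among 11498 protein-coding genes by the root mean square difference of log2 CPM, each gene centred on its own mean. For MYBL2 they were SPANXB1 (0.225), ADAP2 (0.237) and TNFRSF1B (0.265), all with much lower levels in the knockout. SPANXB1, a cancer-testis gene with near-identical copies whose count is therefore uncertain, had 1.94 ± 0.159 CPM in the knockout and 13.0007 ± 0.753 CPM in wild-type (SD, n = 4 each). TNFRSF1B, a receptor for tumour necrosis factor, had 0.771 ± 0.229 CPM in the knockout and 7.41 ± 0.992 CPM in wild-type. For FOXM1 they were EHD4 (0.0184), UBAP2 (0.0195) and FAF2 (0.0259), with log2 changes of 0.38, 0.39 and 0.37. The direction and size of these changes follow from the search, which matched profiles over the same 8 samples. None of these 6 genes was in the lists above.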

How the data were processed

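The authors deposited a table of counts by Ensembl gene identifier, in whole numbers, and one of log2-scale variance-stabilized values, used here as an alternative. Per the submitters' processing notes, the build was hg38 and the tools were DESeq2 1.23.10, FastQC 0.11.7, STAR 2.6.0c and featureCounts from Subread 1.6.2, with no parameters. Annotation release and strand setting are not given in the sources used here. Columns were matched to samples by name.

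The comparison was fitted on the deposited counts over all genes in R 4.3.3 with edgeR 4.0.16 (filterByExpr, TMM scaling, robust quasi-likelihood test, group as the single term, Benjamini-Hochberg adjusted p below 0.05 over 19877 genes). Each adjusted p is from that test unless limma 3.58.1 is named, and 95% intervals come from its standard errors. Changes relative to neighbours subtract, in each sample, the median of the 20 tested genes on each side (log2 CPM, prior count 2). Each neighbour was first centred on its own mean over the samples. Symbols matched 60333 of 60646 identifiers; coordinates and exon lengths came from GENCODE on GRCh38, the build of hg38. The fit was tested on simulated data.

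Members and lists were chosen with earlier results of these data known. Named genes were the members, DOT1L, both DREAM lists, 6 common G2/M readouts, the largest changes that passed in the G2/M (3 genes) and G1/S (4 genes) lists, and the 3 genes most like MYBL2 and FOXM1. A gene of the DREAM switch list is counted but not reported here by name. Others were named by position or, where so said, after their values were seen. AFAP1-AS1 was named after its value was seen.

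No pair of replicates agreed within sampling noise (chi-square per degree of freedom 3.41 to 18.4). Replicates are numbered 1, 2, 3 and 5 in each group. After removing group means, correlations were 0.146 to 0.373 between same-numbered samples, all above the minimum of 0.1, and -0.302 to 0.0587 between others. The numbers were therefore treated as pairs in an alternative fit. Counting error in a library of 40103408 to 50031412 counts is small for all members but LIN37 and MYB.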

Additional observations from a re-analysis of the deposited data

Results flagged for a closer look

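Within groups of 4, a single sample stood apart from the rest in 3 of 90 sets of values examined (45 named genes in 2 groups), where chance gives about 1 in 20. MYBL1 in knockout replicate 1 was 102 CPM, below the other knockout samples at 111 to 112 CPM. PLK1 in knockout replicate 5 was 217 CPM, above the other knockout samples at 191 to 194 CPM. TFDP1 in knockout replicate 3 was 210.1 CPM, above the other knockout samples at 205.9 to 206.3 CPM.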

How the results depend on the processing

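The count of all changed genes, 9458, stayed within 1.5 times of that number under every alternative run, but not its balance: higher genes were 50.3% of those changed under TMM, against 61.2% under library totals and 61.9% under upper-quartile scaling. In the fit with a replicate block 10472 genes passed, and among the named genes the pairing changed the call of DYRK1A and no other. MYBL2 lay between -3.16 and -3.03 on the log2 scale, and at -2.90 in the deposited variance-stabilized values. Of the 7 members other than MYBL2, 6 passed, against 2 relative to 20 chromosomal neighbours a side and 3 relative to 10, a window chosen after seeing the data. The share of all genes that passed was 47.6%, 43.9% and 42.8% under these settings in turn. Of the DREAM partners 5 passed, against 3 under library totals, 3 under upper-quartile scaling, 2 relative to 20 neighbours and 3 relative to 10. All of these calls were falls. The share of all genes that fell was 23.6%, 18.8%, 18.6%, 22% and 21.4% under these settings in turn. By the longest transcript, MYBL2 over MYBL1 was 0.200 in the knockout and 1.96 in wild-type, in the same order as by all exons.

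The sign of some log2 changes turned, including those of LIN54 and CENPE, which were -0.75 each before neighbours were subtracted. Relative to 20 neighbours these were MYBL1 (-0.0606), RBL1 (0.0191), CCNB2 (-0.108), AURKA (-0.0250), BIRC5 (-0.0197), CENPF (0.00126) and CENPE (0.0569). Relative to 10 neighbours they were LIN54 (0.0760), CCNB2 (-0.117) and AURKA (-0.152, adjusted p = 0.0226). Under library totals and upper-quartile scaling RBL1 was at 0.0439 and 0.0465, CDK6 at 0.0154 and 0.0187, CDKN1B at 0.00366 and 0.00711, and CENPF at 0.0299 and 0.0333. RBL1 was at 0.00992 under the stricter filter. BIRC5 was at -0.00392 with DESeq2, -0.00789 with all genes of at least 1 count, and -0.00373 in the variance-stabilized values. On leaving out 1 sample at a time, RBL1 ran from -0.0401 to 0.0177, CDK6 from -0.141 to 0.0453, BIRC5 from -0.0145 to 0.0185 and CENPF from -0.0631 to 0.0131. The causes were not tested. Counting error limits mainly LIN37 and MYB.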
